A study of Mus musculus with 2 samples.

Results

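Regulators of G-protein signalling (RGS proteins) are described here through 8 genes of the family, Rgs1, Rgs2, Rgs3, Rgs10, Rgs14, Rgs16, Rgs18 and Rgs19, out of 18193 genes with a probe set of a single gene symbol. Every probe set whose only platform symbol was one of these names, older aliases included, was taken, which gave 18 probe sets. Rgs16 was chosen by its own difference between the 2 arrays, where it was seen lower with ligands, and the other 7 genes were taken as its family. The values that selected Rgs16 are therefore a description. Rgs14 is also an old alias of Rgs16, and the probe sets of both genes were kept apart by gene identifier.

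The cells were RAW264.7, a mouse macrophage-like tumour line, carrying murine LXRα introduced by chemical transfection and stably expressed. Their RNA was hybridised to Affymetrix mouse arrays. One culture received the LXR agonist GW3965 at 1 µM together with the RXR agonist LG268 at 100 nM for 24 h, and the other received the solvent DMSO for 24 h. Both cultures carry the introduced LXRα, cultures without it or with a single ligand were not analysed here, and the labels do not say whether the line is 1 clone. With 1 array per condition there was no replicate and no test, so each "higher" and "lower" below compares these 2 arrays only.

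RGS proteins bind the GTP-loaded α subunit of heterotrimeric G proteins and speed up its hydrolysis of GTP, which shortens the signal of a G-protein-coupled receptor. In macrophages such receptors sense chemokines, complement fragments, lipids and nucleotides. The family falls into groups by sequence. Rgs1, Rgs2, Rgs3, Rgs16 and Rgs18 are small proteins built around the RGS domain, or have such a short form, and act mainly on the Gi and Gq classes. Rgs10 and Rgs14 act on the Gi class, and Rgs14 also carries a domain that binds inactive Gαi and domains that bind Ras-like GTPases. Rgs19 belongs to a group with a cysteine string that can be lipid-modified.

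Promoter sequences are shown for Rgs16 and Rgs2, the members with the largest ratio in each direction, because LXR and RXR act as DNA-binding partners. Each stretch runs 5′ to 3′ on the gene's strand over 250 bases before and 50 bases from the RefSeq start on, in build GRCm38.p6. Capitals mark matches to CGTCA, the core of the cyclic AMP response element, CCAAT, the CCAAT box, and GGGCGG, the GC box bound by Sp factors, on either strand.
Rgs16 promoter, chr1:153740103-153740402, plus strand: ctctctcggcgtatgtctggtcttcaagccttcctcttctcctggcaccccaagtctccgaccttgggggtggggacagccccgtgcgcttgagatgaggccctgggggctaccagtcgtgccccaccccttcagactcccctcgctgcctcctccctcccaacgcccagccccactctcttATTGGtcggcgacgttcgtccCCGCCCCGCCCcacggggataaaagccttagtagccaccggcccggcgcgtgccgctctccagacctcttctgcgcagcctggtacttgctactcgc
Rgs2 promoter, chr1:144004100-144004399, minus strand: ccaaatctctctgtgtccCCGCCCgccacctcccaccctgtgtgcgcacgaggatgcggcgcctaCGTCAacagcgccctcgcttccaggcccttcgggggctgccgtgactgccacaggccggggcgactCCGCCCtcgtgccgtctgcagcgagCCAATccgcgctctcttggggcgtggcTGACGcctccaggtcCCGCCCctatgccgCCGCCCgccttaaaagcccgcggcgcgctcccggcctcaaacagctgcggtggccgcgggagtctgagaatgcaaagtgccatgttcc

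The Rgs16 stretch held 1 match to CCAAT, beginning 68 bases before the start, and 2 to GGGCGG, at 47 and 42 bases before it, which overlap by 1 base. The Rgs2 stretch held 2 matches to CGTCA at 185 and 67 bases before the start, 1 to CCAAT at 94, and 4 to GGGCGG at 232, 119, 52 and 38. The same search over 32851 RefSeq promoters of this length found CGTCA in 20.8%, CCAAT in 37.4% and GGGCGG in 35.7% of them. These letters are therefore common, and the matches only describe the sequences. The table held 8 promoters for 5 of the members (Rgs2, Rgs3, Rgs10, Rgs16 and Rgs19). None of the 8 contained the nuclear-receptor half-site AGGTCA on either strand, which 16.3% of all promoters did, nor its direct repeat spaced by 4 bases, the arrangement bound by LXR with RXR, which 0.0152% did. This says only that the letters are not in these windows.

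Values are MAS5 signals, which are linear intensities per probe set. Both arrays had a 2% trimmed mean of 2500.02, with medians of 272 on the ligand array and 283 on the DMSO array. Signals under a floor of 276, the median of all probe sets other than controls over both arrays, were raised to it before the log2 ratio of ligands over DMSO was taken. On this scale 49.7% of those probe sets on the ligand array and 50.3% on the DMSO array lay above the floor. Where a gene had several probe sets, the brightest over both arrays stood for it. A gene counted as measured if either of its signals passed the floor, and a difference of 2-fold or more was called. Where 1 array was at the floor the fold is a bound, and where both were there is none. The only error available is the disagreement between probe sets of a gene on these same arrays, an SD of 0.28 log2 per probe set over 4866 genes. It was taken from the 2 brightest sets of a gene that passed the floor on both arrays. Sets at the floor on either array are therefore not in it. It does not hold the spread between cultures. All 10 macrophage markers examined were measured, with log2 ratios from -0.27 for Ptprc to 1.02 for Mpeg1 and a median of 0.023. Mpeg1 had a signal of 45001 with ligands and 22120.4 with DMSO, 2.03-fold higher. Fcgr1 was 1.53-fold higher on its brightest set and 1.15-fold higher on its other set. Markers of other cell types on the array were judged by their brightest sets. Of these, 1 of 7 lymphocyte, 2 of 5 granulocyte and 2 of 6 mast cell and platelet genes passed the floor, with a highest signal of 1602. For fibroblast and epithelial genes the counts were 0 of 5 and 0 of 4. The fibroblast marker Dcn passed the floor on another set, with 16.2 with ligands and 329 with DMSO. In RNA from a culture, a lower level per cell and fewer cells with the transcript cannot be told apart.

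Rgs16, which limits Gi and Gq signalling and is known as a gene induced by inflammatory stimuli, was lower on the ligand array. Its brightest probe set, 1426037_a_at, had a signal of 231 with ligands and 1141 with DMSO. Because the ligand signal was under the floor, Rgs16 was at least 4.13-fold lower with ligands, a log2 ratio of -2.05 or less. The second probe set, 1451452_a_at, had 165 with ligands and 565 with DMSO, at least 2.04-fold lower. On both probe sets the transcript passed the floor with DMSO and not with ligands. The third, 1455265_a_at, had 196 with ligands and 262 with DMSO, under the floor on both arrays, and gives no fold. Rgs16 counts as measured through its DMSO array alone. The names of its 3 probe sets end in _a_at, the platform's mark for sets that match several transcripts of 1 gene. No call was left without such sets, nor with the floor at the 75th percentile, where Rgs16 was not measured.

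The array-wide background of this contrast stands beside that value without being read, since the contrast chose Rgs16. Of 11077 measured genes, 86 (0.776%) were at least 2-fold lower with ligands, and of 20731 measured probe sets 221 (1.07%) were. Among 2385 genes whose brighter signal lay within 2-fold of that of Rgs16, from 571 to 2282, 59 (2.47%) were at least 2-fold lower. Their log2 ratios ran, from the 5th to the 95th percentile, from -0.77 to 0.87 around a median of 0.00022. In that window 3 genes, Rgs16 included, had a ratio at or below that of Rgs16, and among all measured genes 4 did. Because of the floor, no gene with a DMSO signal under the 1141 of Rgs16 could reach that ratio. These 2 counts are therefore limited by the floor and do not show how unusual Rgs16 is. Of 5401 genes with 2 or more measured probe sets, 11 (0.204%), Rgs16 among them, had both of their brightest at least 2-fold lower. A set with a DMSO signal less than 2-fold above the floor could not be called lower. The second Rgs16 set lies just past that line, at a bound of 2.04-fold.

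Rgs2, which favours Gq among the α subunits, was the member with the largest ratio in the other direction, and stayed within 1.5-fold. The brightest probe set, 1419247_at, had a signal of 13875 with ligands and 10519.7 with DMSO. Probe set 1419248_at had 9723 with ligands and 7126 with DMSO. Probe set 1447830_s_at had 7359.8 with ligands and 4959.9 with DMSO. All 3 were higher with ligands, by 1.32-fold, 1.36-fold and 1.48-fold, and their mean log2 ratio was 0.47 ± 0.087 (SD over 3 probe sets of the same arrays), a 1.39-fold difference. The remaining dim set, 1443250_at, had 358 with ligands and 199.8 with DMSO, at least 1.29-fold higher. The log2 ratio of the brightest set, 0.40, was 1 of 2 among the measured members that exceeded the probe-set SD of 0.28, the other being that of Rgs16. The Rgs16 ratio is a bound from a set at the floor with ligands, a kind of set not in that SD.

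Rgs1, which in lymphocytes restrains migration toward chemokines, had a signal of 1929.6 with ligands and 1942 with DMSO on its single probe set, 1417601_at. The levels differed by 1.01-fold. Rgs3, a gene with long and short protein forms, had 1927 with ligands and 2067 with DMSO on probe set 1425296_a_at. On 1425701_a_at it had 1107 with ligands and 1135 with DMSO. Both log2 ratios, -0.10 and -0.036, were within the probe-set SD. Its other probe sets were under the floor on both arrays, with 101 and 41.6 with ligands and 117 and 32.8 with DMSO on 1449516_a_at and 1454026_a_at. Rgs18, a regulator of blood cells best known from platelets and megakaryocytes, was not measured. Its probe set 1449856_at had 41.0 with ligands and 112 with DMSO, and 1420398_at had 13.7 with ligands and 86.3 with DMSO. All of these lie under the floor, so no fold is given for Rgs18. The floor is the median signal and not a detection limit, and with the floor at the 25th percentile, 70.2, Rgs18 passes it with DMSO.

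Rgs10, a small Gi regulator prominent in microglia and macrophages, had a signal of 15908 with ligands and 13993 with DMSO on its single probe set, 1416882_at, 1.14-fold higher. Rgs14 had 4898 with ligands and 4647 with DMSO on 1419221_a_at, 1.05-fold higher. Both differences, 0.19 and 0.076 log2, were smaller than the probe-set SD. Rgs19, which was first found as a partner of Gαi3, had 13322 with ligands and 14962 with DMSO on 1417786_a_at. On 1434940_x_at it had 5661 with ligands and 7078 with DMSO. Both sets were slightly lower with ligands, by 1.12-fold and 1.25-fold, the first within the probe-set SD and the second, at -0.32 log2, just outside it. The name of the second set marks it as one that can also bind other transcripts.

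Of the 8 members, 7 were measured, through 13 of 18 probe sets, and 10 probe sets passed the floor on both arrays. The other 5 probe sets were under the floor on both, with signals from 13.7 to 262. Rgs16 was at least 2-fold lower, and no measured member was at least 2-fold higher, where 185 of 11077 measured genes (1.67%) were. At 1.5-fold the counts stayed at 1 lower and 0 higher, beside 528 genes lower (4.77%) and 705 higher (6.36%) over the array. The remaining 6 measured members lay within 1.5-fold, with log2 ratios from -0.17 for Rgs19 to 0.40 for Rgs2, and 5 of them within 1 probe-set SD of 0. The median over the 7 was -0.0090, or 0.033 without Rgs16, beside -0.027 over all measured genes. Levels of different members are not ranked, since signals of different probe sets are not on a common scale. The plot of signals by probe set shows each of these values.

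**Figure D1:**
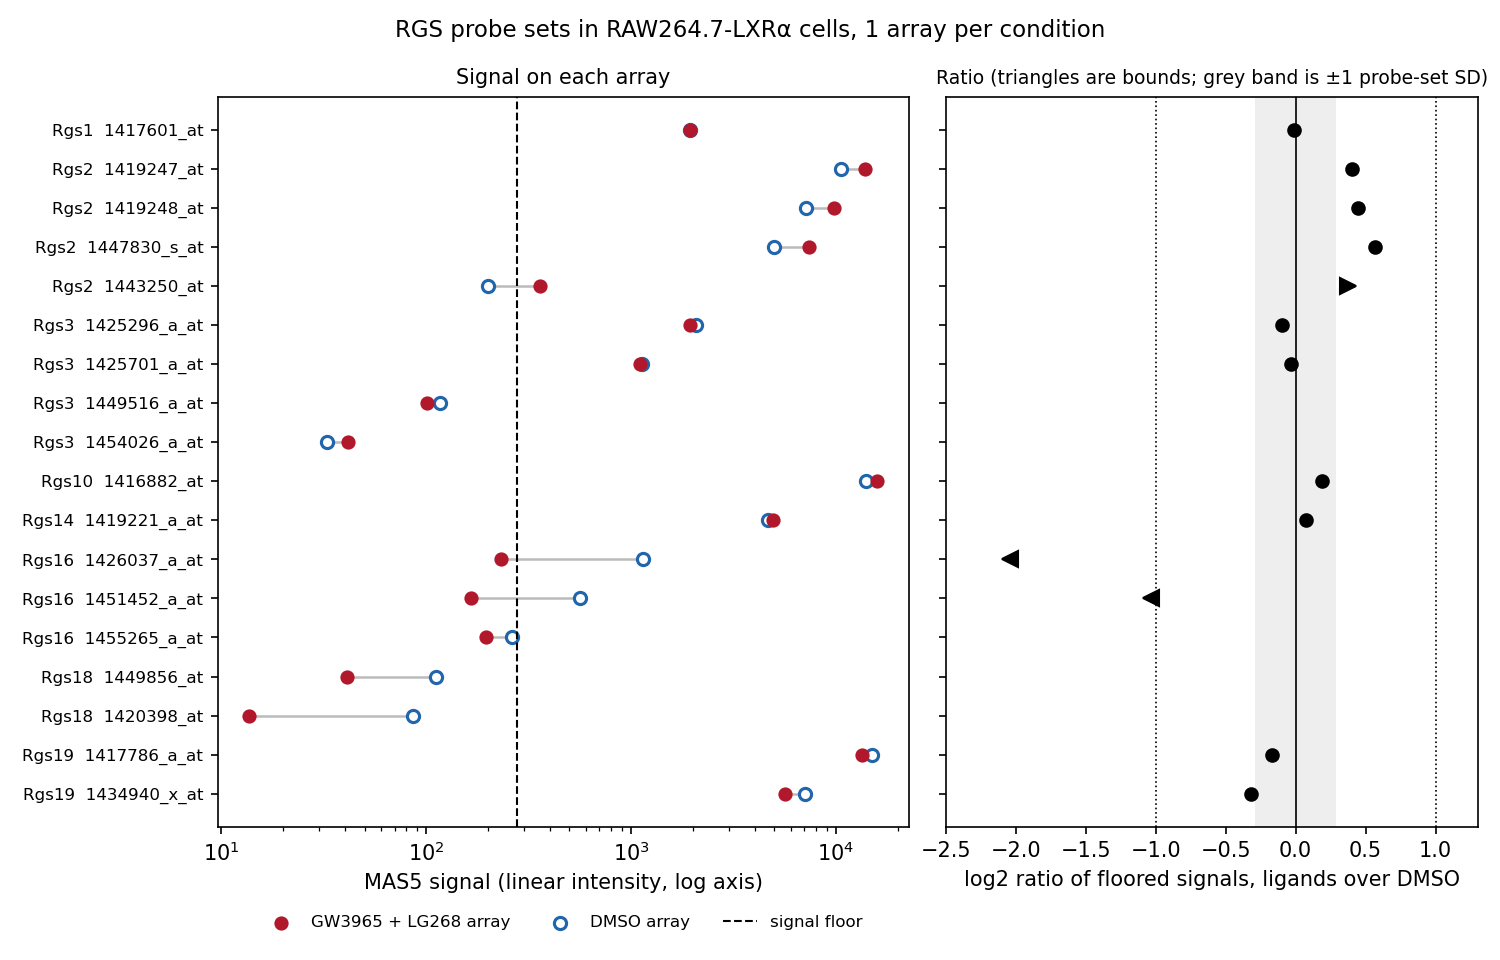
Left, MAS5 signal (linear intensity, log axis) of each of the 18 RGS probe sets on the GW3965 + LG268 array (filled) and the DMSO array (open), with the floor of 276 dashed. Right, log2 ratio of floored signals, ligands over DMSO, for the 13 measured probe sets, with triangles for bounds, dotted lines at 2-fold and a grey band of 1 probe-set SD (0.28). Rgs16 crosses the floor on 2 probe sets, all 4 Rgs2 sets lie to the right of the band, and the points of the 2 arrays nearly coincide for Rgs1.

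The plot of all measured genes places the same ratios against signal. Rgs16 sits at the lower edge, where the floor limits how low a ratio can go. At its DMSO signal of 1141 a gene under the floor with ligands cannot show a ratio below -2.05, which is the value Rgs16 has.

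**Figure D2:**
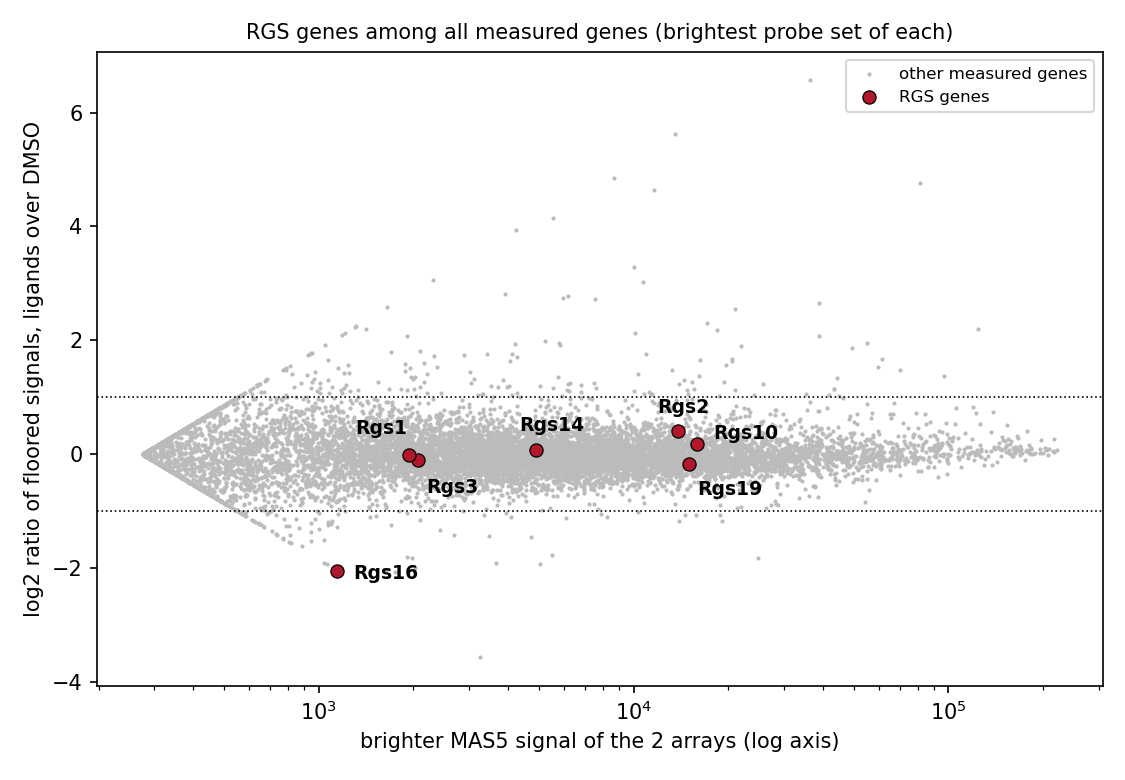
Log2 ratio of floored signals, ligands over DMSO, against the brighter MAS5 signal of the 2 arrays (log axis) for the 11077 measured genes, 1 point per gene by its brightest probe set, with the 7 measured RGS genes in red and dotted lines at 2-fold. Rgs16 lies on the diagonal that the floor draws at lower left, and the other 6 lie between -0.17 and 0.40.

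By RefSeq gene order, Rgs2, Rgs1 and Rgs18 lie in a cluster of RGS genes on chromosome 1, and Rgs16 lies elsewhere on that chromosome beside Rgs8. The nearest genes on either side with a probe set of their own were looked up for each member. On the array the nearest neighbours of Rgs16, Rgs8 and Teddm2, were under the floor on both arrays, with 19.4 and 202 with ligands and 23.7 and 12.9 with DMSO. No ratio of a neighbour can therefore be set beside that of Rgs16. Within the cluster, Rgs13, between Rgs2 and Rgs1, was under the floor at 63.2 with ligands and 11.9 with DMSO, as was Gm29514 beyond Rgs18. Outside it, Uchl5, a deubiquitinase gene next to Rgs2, had 24331 with ligands and 29775 with DMSO, a log2 ratio of -0.29 where that of Rgs2 was 0.40. So Rgs2 and its measured neighbour differed in sign. Rgs10 on chromosome 7 lies between Rusf1, at 1574 with ligands and 1053 with DMSO, and Tial1, at 12575 with ligands and 13813 with DMSO. Rgs14 on chromosome 13 lies between Lman2, with a log2 ratio of 0.083, and Slc34a1, at least 1.22-fold higher. Rgs19 on chromosome 2 lies between Tcea2, at 0.39, and Lkaaear1, and Rgs3 on chromosome 4 between 4933430I17Rik and Zfp618. These last 3 neighbours were under the floor on both arrays.

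Of 14 other RGS genes, 11 had a probe set and 2 of these passed the floor, neither of them 2-fold apart. With the floor at the 25th percentile, 3 of the list were at least 2-fold lower and 1 higher. At that floor 1335 of 16210 measured genes over the array were lower and 1348 higher. Rgs11, of the group that works as a complex with the atypical β subunit Gβ5, had a signal of 4016 with ligands and 2367 with DMSO on its single probe set, 1.70-fold higher. Gnb5, which encodes that partner, had 2727 with ligands and 2183 with DMSO, a log2 ratio of 0.32. Rgs20, a relative of Rgs19, had 110.1 with ligands and 412 with DMSO on 1 of its 3 probe sets, at least 1.49-fold lower. The 20 probe sets of the other 9 genes were under the floor on both arrays, with a highest signal of 264.98. Rgs20 and Gnb5 were picked after their values were seen.

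Proteins with an RGS-like domain and another main function were measured in 8 of 11 cases, with a median log2 ratio of 0.068, and none was 2-fold apart. The 3 RhoGEFs that pass the signal of G12 and G13 to RhoA were all measured. Arhgef11 had 11919 with ligands and 6591 with DMSO, 1.81-fold higher, and was the only gene of the list past 1.5-fold. Arhgef12 had 3057 with ligands and 2053 with DMSO, and its 4 probe sets ran from 0.16 to 0.61. Arhgef1 had 8868 with ligands and 8650.1 with DMSO, but its other measured probe set was at -0.70, so its sets disagree. That other set was dim, with 279 with ligands, close to the floor, and 454 with DMSO. The Wnt scaffold Axin1 at 0.013, the protein kinase A anchor Akap10 at 0.10 and the sorting nexins Snx13 at 0.28, Snx14 at -0.18 and Snx25 at -0.27 stayed within the probe-set SD by their brightest sets.

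The α subunits on which RGS proteins act were measured for 10 of 15 genes on the array, with a median log2 ratio of 0.13, and none was 2-fold apart. In the Gi class, a main substrate of Rgs16, Rgs10, Rgs14 and Rgs19, Gnai2 had 24159 with ligands and 23974 with DMSO, and Gnai3 had 24309 with ligands and 25743 with DMSO. By these brightest sets they differed by 1.01-fold and 1.06-fold, while the second sets stood at 0.47 for Gnai2 and -0.72 for Gnai3. The second Gnai2 set was bright, with 21231 with ligands and 15298 with DMSO. The second Gnai3 set was dim, with 402 with ligands and 664 with DMSO. In the Gq class, the preferred substrate of Rgs2, Gnaq had 3979 with ligands and 3197 with DMSO, and its 7 probe sets ran from -0.14 to 0.57. Gna11 had 3146 with ligands and 2221 with DMSO, 1.42-fold higher, and Gna15 stood at -0.12. Gna12 had 2692 with ligands and 1634 with DMSO, 1.65-fold higher, and its 3 probe sets agreed in sign, from 0.48 to 0.72. Its relative Gna13 stood at -0.093 and Gnas, the Gs subunit, at 0.25. The dim pair of this list were Gnal, the olfactory subunit, at least 1.60-fold higher with 442 with ligands and 256 with DMSO, and Gnat2, the cone transducin, 1.66-fold lower with 404 with ligands and 671 with DMSO.

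Other partners of the RGS cycle were compared by the same rule. Of 9 measured β and γ subunits, 1 was at least 2-fold higher and none lower, beside 1.67% and 0.776% of all measured genes. That gene was Gngt2, a γ subunit known from cones. On its only measured probe set it had 4268 with ligands and 1315 with DMSO, 3.25-fold higher. All 4 measured receptor kinases and arrestins, which also end receptor signals, had positive ratios within 1.5-fold. Their median log2 ratio was 0.23, beside -0.027 over all measured genes. Arrb2 had 22998 with ligands and 16596 with DMSO, a log2 ratio of 0.47. Grk5 stood at 0.31, Arrb1 at 0.15 and Grk6 at 0.077. Arrb1 and Grk6 were within the probe-set SD of 0.28, so their sign says little. A further 8 measured genes encode regulators that act on Gα subunits by other routes or bind RGS proteins. By their brightest sets, the only one past 1.5-fold was Gipc1, an adaptor that binds Rgs19. It had 6561 with ligands and 4189 with DMSO, 1.57-fold higher. Dimmer sets were further apart for Gpsm1, 1.92-fold higher on 1 set, and Ric8a, at least 1.99-fold lower on 1 set. Their brightest sets stood at 0.11 and 0.43.

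Among 22 measured effectors of G proteins the median log2 ratio was -0.040. Plcb3, a phospholipase C activated by Gq and by βγ, had 2448 with ligands and 1162 with DMSO on its only measured probe set. It was the only effector at least 2-fold higher, by 2.11-fold, and none was 2-fold lower by its brightest set. Over all measured genes the shares were 1.67% and 0.776%. With the floor at the 75th percentile its log2 ratio was 0.16 and that of Gngt2 0.97, and neither call held. By their brightest sets, the lower pair past 1.5-fold were Pde4b, a cyclic AMP phosphodiesterase, 1.82-fold lower with 586 with ligands and 1067 with DMSO but at -0.032 on its other set, and Adcy3, an adenylyl cyclase, at least 1.66-fold lower with 231 with ligands and 459 with DMSO. Prkar2b, a regulatory subunit of protein kinase A, stood at -0.20 on its brightest set but was 2.10-fold and 2.18-fold lower on the other 2, with 1147 and 1008 with ligands and 2412 and 2195 with DMSO. In the other direction Adcy9, also an adenylyl cyclase, stood at 0.21 on its brightest set, and its 4 measured sets ran from -0.084 to 0.99. The highest was 1.99-fold higher, with 778 with ligands and 391 with DMSO. Of 44 G-protein-coupled receptors of macrophages on the array, most are coupled to Gi or Gq and some, such as Gpr65, to Gs. Of these receptors 23 were measured, with a median of -0.033, 2 at least 2-fold higher and 1 lower. The shares over all measured genes were 1.67% higher and 0.776% lower. Cx3cr1, a chemokine receptor, had 6961 with ligands and 24773 with DMSO, 3.56-fold lower. The higher ones were C5ar1, the receptor of the complement fragment C5a, at 10931 with ligands and 3226 with DMSO on 1 set and at a log2 ratio of 1.43 on the other, and Gpr35, at least 3.44-fold higher with 951 with ligands and 253 with DMSO. S1pr1, a sphingosine 1-phosphate receptor, and Gpr65, an acid-sensing receptor, were 1.96-fold and 1.80-fold higher. These lists were drawn up with results of these arrays known, so their counts are descriptions. The plot by functional group sets the lists beside the RGS genes.

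**Figure D3:**
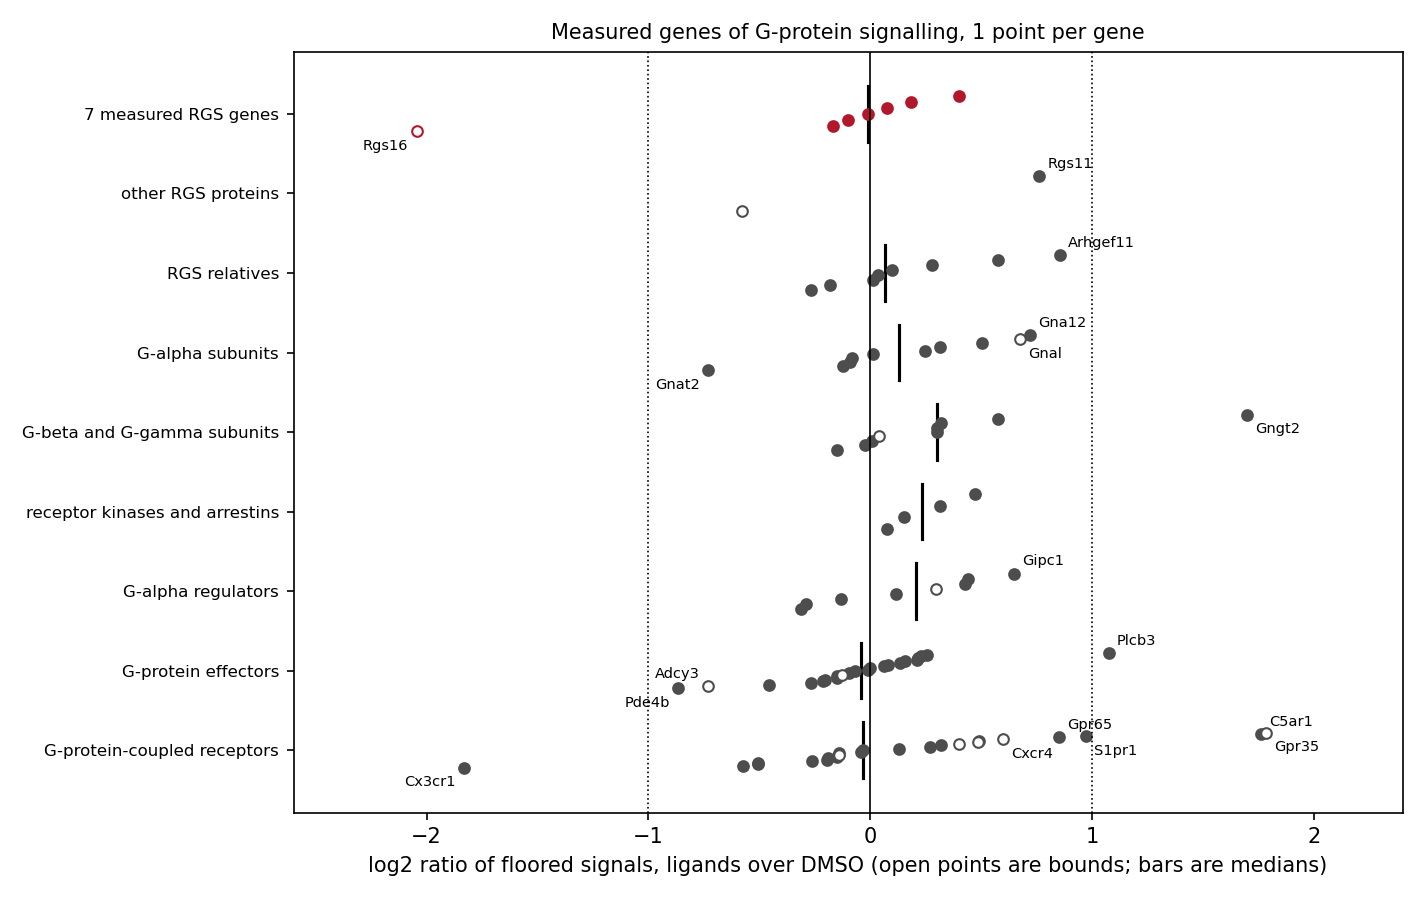
Log2 ratio of floored signals, ligands over DMSO, 1 point per measured gene by its brightest probe set, for the 7 measured RGS genes (red) and 8 lists of related genes. Open points are bounds, black bars are medians of lists with 3 or more measured genes, and dotted lines mark 2-fold; Rgs16 lies alone at left in its group, and the points past 2-fold elsewhere are Gngt2, Plcb3, C5ar1, Gpr35 and Cx3cr1.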

How the data were processed

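Gene expression was measured on 2 Affymetrix arrays of RAW264.7 cells expressing LXRα, 1 with GW3965 and LG268 and 1 with DMSO. The authors deposited 1 linear intensity per probe set. The submitters' processing notes name MAS5, without a version or genome build. This method sets the trimmed mean of every array to the same value, so ratios compare a gene with most others on the array, and the deposited scaling was kept. Detection calls were not used here.

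Of 45101 probe sets, 34945 had 1 platform gene symbol, 932 had several symbols, 9160 had none and 64 were controls. For 34741 of the 34945 the gene identifier was found in RefSeq GRCm38.p6. The RefSeq symbol was used for these, whether or not it differed from the platform's. The floor, ratios and thresholds are those given with the results. With 1 array per condition no p-value was computed, and the number of arrays limits the precision. The procedure was also run on simulated data with planted changes and the same noise at every signal level. That run therefore cannot show how calls fare where dim sets scatter more.

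The members and the 14 gene lists were chosen with earlier results of these data known. Genes were named by rule: all members with every probe set; of the signalling lists, measured genes at least 1.5-fold apart, at most 4 per list and direction; every measured gene of the α-subunit, RGS-relative and receptor kinase lists; and the nearest gene on each side of a member in RefSeq order. Other genes quoted (Rgs20, Gnb5, Gpsm1, Ric8a, Prkar2b, Adcy9, Ptprc, Mpeg1, Fcgr1 and Dcn) were picked after their values were seen. Alternatives were floors at the 25th and 75th percentile, quantile normalization, an unfloored log2(signal + 32), ratios centred on their median, the mean over measured probe sets, leaving out _s_at, _x_at and _a_at sets, and a 1.5-fold threshold. Python 3.11.15 with numpy 2.4.6 and pandas 2.3.3 was used. Promoter sequences are from RefSeq.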

Additional observations from a re-analysis of the deposited data

How the results depend on the processing

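The number of RGS genes at least 2-fold lower was 1 as reported and 0 with the floor at the 75th percentile, where Rgs16 lies under the floor on both arrays, and 0 without _s_at, _x_at and _a_at probe sets, which removes every Rgs16 set. The log2 ratio of Rgs16 ran from -2.30 to -1.54 over the 6 settings that gave one, the last being the mean over its measured probe sets. Of 42 alternative values of members' log2 ratios, 41 moved by less than the probe-set SD, and none that was called changed sign. The sign of Rgs1 did turn, with ratios from -0.013 to 0.018. Over the whole array, the genes at least 2-fold lower (86) numbered 1335 with the floor at the 25th percentile, 13 with it at the 75th and 404 with log2(signal + 32). Those higher (185) numbered 1348, 71 and 478. The measured genes changed too, from 11077 as reported to 16210 with the floor at the 25th percentile and 6967 at the 75th. With log2(signal + 32) they stayed at 11077. Of 161 alternative counts and medians of the lists, 20 were scored as moved. Some smaller changes were not scored so. Receptors at least 2-fold higher numbered 2 as reported and 3 both with quantile normalization and with log2(signal + 32). With quantile normalization S1pr1 had a log2 ratio of 1.01, past 2-fold. With the floor at the 75th percentile the genes at least 2-fold higher fell to 0 for β and γ subunits and for effectors and to 1 for receptors. Leaving out _s_at, _x_at and _a_at sets removed Gpr35, gave 1 effector at least 2-fold lower and put the median of the Gα regulators at -0.13, against 0.20 as reported. With the floor at the 25th percentile higher genes numbered 1 other RGS protein, 1 RGS relative, 3 β and γ subunits, 2 Gα regulators, 2 effectors and 4 receptors, and lower ones 3 other RGS proteins, 1 α subunit, 1 Gα regulator, 1 effector and 2 receptors. With log2(signal + 32), 1 other RGS protein was lower, and 2 β and γ subunits, 1 Gα regulator and 3 receptors were higher. A floor therefore decides many calls on dim genes, and Rgs16 with ligands is dim. No paired analysis was possible because each condition has 1 array.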
